A study of Glycine max with 24 samples.

Results

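The 4-coumarate CoA ligases (4CL) of soybean were described here by every probe set that the probe-to-gene table of the array assigns to 1 gene with the symbol 4CL, 4CL1, 4CL2, 4CL3 or 4CL4. These were 7 probe sets of 5 genes, out of 6029 genes read by the 8677 probe sets with 1 gene, among 37593 soybean probe sets tested. The gene 4CL was read by Gma.5032.1.S1_at, 4CL3 by Gma.8449.1.S1_at and 4CL4 by Gma.8472.1.S1_at. For 4CL1 the main probe set was Gma.1190.1.S1_at and the second GmaAffx.93625.1.S1_s_at, and for 4CL2 the main probe set was Gma.4928.1.S1_a_at and the second GmaAffx.91641.1.S1_s_at, where the main probe set of a gene is the one of higher mean signal. A further probe set, Gma.8449.1.S1_s_at, carries the names of both 4CL4 and 4CL3 and was left out of the family, and how far the array separates these relatives was not tested. All 7 probe sets had a mean above the signal filter, and none was at or under the background bound on any of the 24 arrays.

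4-coumarate CoA ligase attaches coenzyme A to 4-coumarate and related cinnamic acids. It stands where the general phenylpropanoid pathway, which starts from phenylalanine, splits into the branch to the lignin monomers and the branch that chalcone synthase opens to flavonoids, isoflavonoids and the soybean phytoalexins called glyceollins. Plants hold several isoenzymes that differ in their preferred acids, and the soybean enzyme 4CL1 is known for also accepting sinapate. In roots, lignin stiffens cell walls, and its deposition is a familiar response to toxic aluminium.

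The study measured RNA from root tips of 1 cm length of soybean seedlings grown in hydroponics, on 24 single-colour Affymetrix arrays in 8 groups of 3. The groups were PI 416937 (PI below) or Young roots, held for 12 or 72 h in 10 µM Al alone or in Al plus Mg, and all groups received Al, so no comparison is with roots free of Al. The Mg dose is not given in the labels, which call PI 416937 sensitive and Young tolerant to aluminium, the reverse of how these lines are usually described. The groups are therefore named by line only. The labels do not say whether replicates came from separate plants or pools, so p-values measure the spread between these arrays, which may be technical. In such bulk samples fewer cells of a type and less RNA per cell cannot be told apart.

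Replicate arrays correlated at 0.981 to 0.994 over the 33117 tested probe sets with a mean above the signal filter. Without replicate 3 of Young with Al alone at 12 h, the number of probe sets passing for Mg in Young at 12 h went from 11 to 3117, and without replicate 3 of Young with Mg at 12 h to 232. Of the tested probe sets 77.6 to 81.3% lay above the array's background bound. Of 17 genes on a list of root membrane transporters, 14 were above the bound on all arrays and NIP2-2 was at or under it on all. Both markers of green tissue, CAB3 and PSAD, and the nodule markers NOD33 and ENOD40B were also above the bound on every array.

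At 72 h, the roots given Mg with Al had lower 4CL1, 4CL3 and 4CL4 signal than the roots given Al alone, in both lines, while 4CL2 and 4CL did not pass the test in either. By limma with Benjamini-Hochberg adjustment at 0.05, 4 of the 7 probe sets fell and 0 rose in PI, and 4 fell and 0 rose in Young. Over all tested probe sets 13.0% fell and 20.7% rose in PI, and 16.3% fell and 23.1% rose in Young. The median log2 difference of the 5 genes was −0.98 in PI, beside 0.06 over all tested probe sets, and −0.70 in Young, beside 0.03. In the plot of values by array, the 72 h arrays with Mg have the lowest group mean of each line for 4CL1, 4CL3 and 4CL4.

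**Figure D1:**
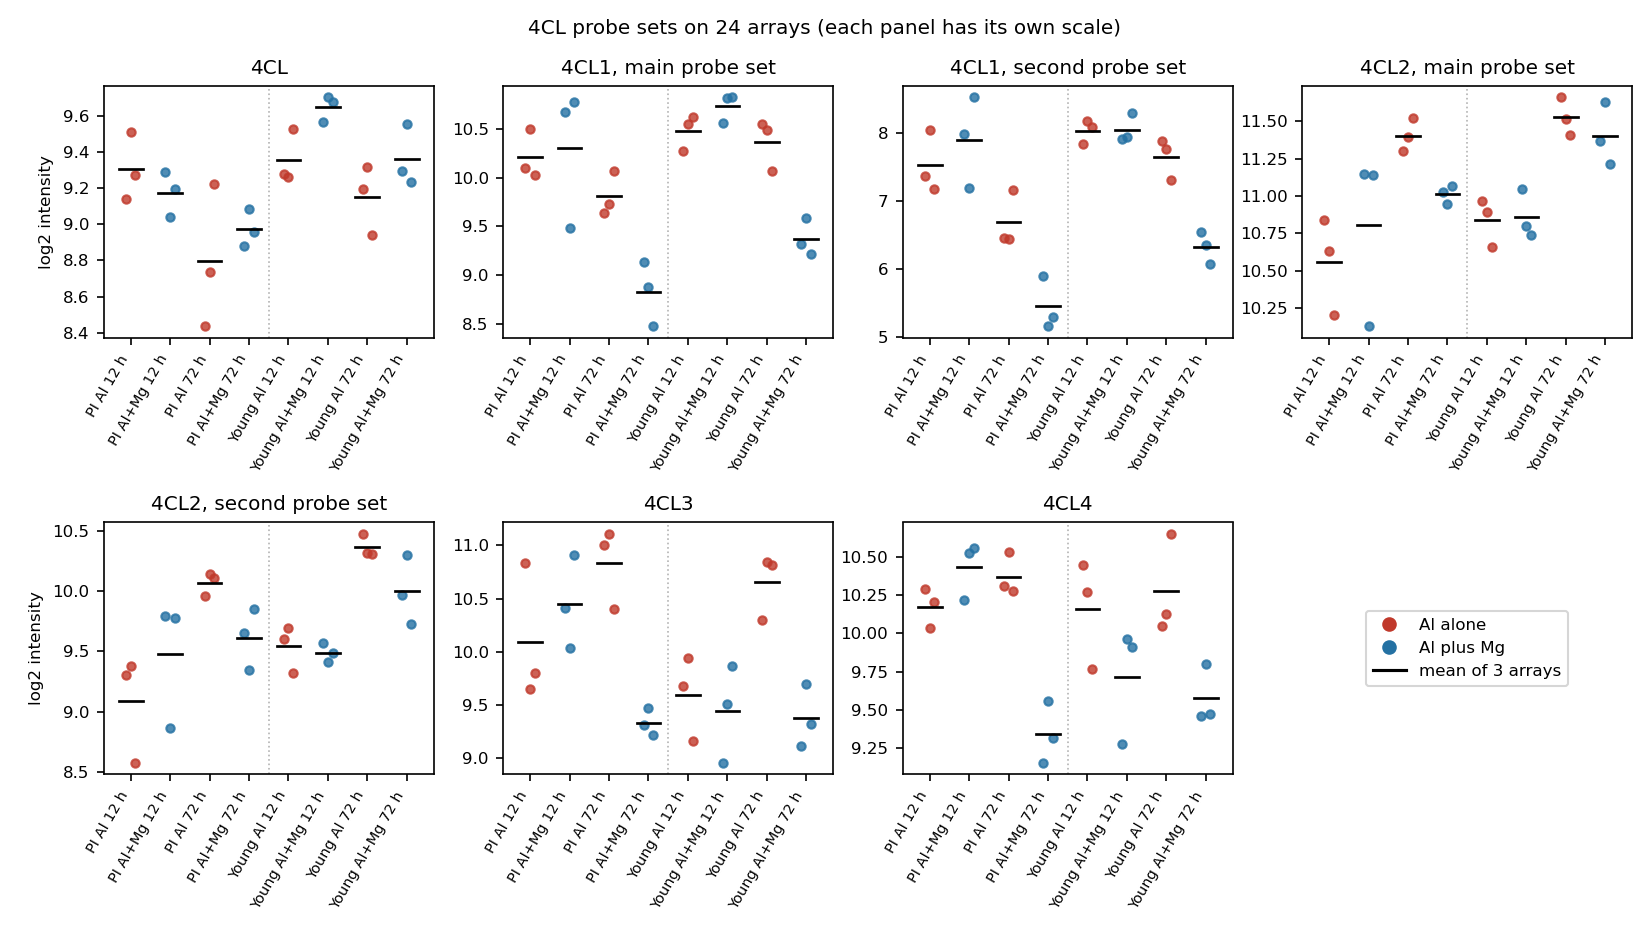
The log2 intensity of each 4CL probe set (vertical axis, its own scale in each panel) in the 8 groups of PI and Young roots (horizontal axis), with 1 point per array and a bar at the mean of 3 arrays. For 4CL1, 4CL3 and 4CL4 the points for Al plus Mg at 72 h lie below all points for Al alone at 72 h in the same line.

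4CL1, the isoenzyme that also takes sinapate, read in PI at 72 h, on its main probe set, log2 intensities of 9.64, 9.73 and 10.06 in Al alone and of 9.13, 8.88 and 8.47 once Mg was added. In Young the values were 10.55, 10.49 and 10.07 with Al alone and 9.32, 9.58 and 9.22 with Mg. In both lines every array with Mg was below every array without it, as for 15.0% of all tested probe sets in PI and 19.9% in Young. The difference was −0.98 ± 0.27 (SE, n = 3 and 3, 1.98-fold lower, limma adjusted p = 0.00810) in PI and −0.996 ± 0.27 (n = 3 and 3, 1.99-fold lower, limma adjusted p = 0.00599) in Young. The second probe set of 4CL1 fell by 1.24 ± 0.31 in PI (limma adjusted p = 0.00462) and fell by 1.33 ± 0.31 in Young (limma adjusted p = 0.00210), also with no overlap.

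4CL3 showed the widest difference of the family with Mg in PI. In PI at 72 h its log2 intensities were 10.999, 11.11 and 10.40 in Al alone and 9.31, 9.47 and 9.22 once Mg was added, and 10.30, 10.84 and 10.82 against 9.11, 9.70 and 9.32 in Young. The arrays with and without Mg did not overlap in either line. The difference was −1.51 ± 0.32 (SE, n = 3 and 3, 2.84-fold lower, limma adjusted p = 0.00151) in PI and −1.28 ± 0.32 (2.43-fold lower, limma adjusted p = 0.00405) in Young.

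In PI at 72 h 4CL4 read 10.31, 10.53 and 10.28 in Al alone and 9.15, 9.56 and 9.32 in Al plus Mg on the log2 scale. In Young it read 10.05, 10.13 and 10.65 with Al alone and 9.46, 9.80 and 9.47 with Mg. Again no array with Mg reached an array without it. 4CL4 fell by 1.03 ± 0.20 (SE, n = 3 and 3, 2.04-fold lower, limma adjusted p = 8.11e-04) in PI and fell by 0.70 ± 0.20 (1.62-fold lower, limma adjusted p = 0.0109) in Young. Without replicate 3 of Young with Al alone at 72 h, the array of highest 4CL4 in that group, the difference in Young was −0.51 (limma adjusted p = 0.0705). Over the alternatives tried, the adjusted p of 4CL4 in Young ran from 0.00900 to 0.0705. The probe set shared by 4CL4 and 4CL3 fell by 1.10 ± 0.20 in PI (limma adjusted p = 4.16e-04) and fell by 0.73 ± 0.20 in Young (limma adjusted p = 0.00789).

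4CL2 in PI at 72 h had log2 intensities of 11.30, 11.39 and 11.52 in Al alone and 11.02, 10.95 and 11.07 in Al plus Mg on its main probe set. These arrays did not overlap, yet the difference of −0.39 (95% confidence interval −0.84 to 0.06, limma adjusted p = 0.177) did not pass. The second probe set of 4CL2 had −0.45 (−0.94 to 0.04, limma adjusted p = 0.148) in PI. In Young the main probe set had −0.13 (−0.57 to 0.32, limma adjusted p = 0.725) and its arrays overlapped, and the second had −0.37 (−0.86 to 0.12, limma adjusted p = 0.238) and its arrays did not. In a fit of the 6 PI arrays of 72 h alone, 1 of the 4CL2 probe sets passed, the main one (limma adjusted p = 0.0234).

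The differences of the gene 4CL lay above 0, unlike those of the others, but did not pass in either line. Its log2 intensities in PI at 72 h were 8.44, 8.73 and 9.22 with Al alone and 8.88, 9.08 and 8.96 with Mg, and in Young 9.19, 9.32 and 8.94 against 9.30, 9.56 and 9.23. The groups overlapped in both lines, with differences of 0.18 (95% confidence interval −0.16 to 0.51, limma adjusted p = 0.437) and 0.21 (−0.12 to 0.54, limma adjusted p = 0.329). Without replicate 3 of PI with Al alone at 72 h, the highest of its group, 4CL was higher with Mg in PI (0.39, limma adjusted p = 0.0427). Over the alternatives tried, its difference in PI ran from −0.005 to 0.39 and the limma adjusted p from 0.0427 to 0.988.

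The end ratios of control transcripts moved with the same 72 h contrast. The 3′ minus 5′ log2 signal of the P450 control transcript was 2.51 ± 0.36 (SD, n = 3) in Al alone and 4.12 ± 0.25 in Al plus Mg for PI, and it went from 2.26 ± 0.37 to 3.80 ± 0.16 in Young. That of actin went from 7.99 ± 0.03 to 8.41 ± 0.17 and from 7.88 ± 0.20 to 8.41 ± 0.04. Their part in the 4CL differences was not tested. Of the 2 green-tissue markers CAB3 rose with Mg in Young (1.39, limma adjusted p = 0.00445), and the summed signal of the list was, for Young, 10026 to 12491 in Al alone and 11703 to 12233 in Al plus Mg, and 11903 to 16076 and 13229 to 15402 for PI. Of the 4 nodule markers NOD33 fell in both lines (−1.43 in PI, limma adjusted p = 0.0345, and −2.18 in Young, limma adjusted p = 0.00195), ENOD93 rose in PI (1.93, limma adjusted p = 0.0236), and ENOD55-2 was at or under the bound on 20 of 24 arrays. Their summed signal was 4456 to 7961 in Al alone and 2044 to 2521 in Al plus Mg for PI, and 8181 to 14972 and 2055 to 3190 for Young. Of 5 genes of dividing root tips, a histone, a polymerase and tubulins, 2 rose and 1 fell in PI and 3 rose and 1 fell in Young with Mg, and of the 17 root transporters 3 rose and 1 fell and 4 rose and 1 fell. Over all tested probe sets, as given above, 20.7% rose and 13.0% fell in PI and 23.1% rose and 16.3% fell in Young. The summed signal of the dividing-tip list was 77848 to 81121 in Al alone and 77154 to 80314 in Al plus Mg for PI, and 71046 to 75370 and 72820 to 75903 for Young. That of the root list was 183136 to 191734 and 205757 to 217679 for PI, and 189240 to 197852 and 211384 to 232994 for Young. The part of these lists in the 4CL differences was not tested.

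After 12 h, Mg made no difference in the family that passed the test. By limma 0 of 7 probe sets passed in PI and 0 of 7 in Young, where 0.0293% of all tested probe sets passed in each line. At an unadjusted p under 0.05 there were 0 of 7 in PI and 1 of 7 in Young, and 1412 and 6396 over all tested probe sets. The differences ran from −0.13 to 0.39 in PI and from −0.45 to 0.29 in Young. On leaving out any single array of the comparison, 0 of 7 passed in both lines.

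4CL4 in Young was the 1 with an unadjusted p under 0.05. It read 10.45, 10.27 and 9.77 with Al alone and 9.27, 9.96 and 9.91 with Mg, and the groups overlapped (−0.45 ± 0.20, SE, limma adjusted p = 0.276). 4CL in Young was higher in every array with Mg (9.57, 9.70 and 9.68) than in every array without (9.28, 9.26 and 9.53), by 0.29 ± 0.16 (limma adjusted p = 0.352). Such a gap upward was seen in 5.92% of all tested probe sets. In PI with Mg, replicate 2 had the lowest 4CL1 of its group (9.49, beside 10.67 and 10.77) and the lowest 4CL2 (10.13, beside 11.14 and 11.14). The same array was also the lowest for 4CL3 (10.03, beside 10.41 and 10.91) and for 4CL (9.04, beside 9.29 and 9.19). For 4CL4 it was not the lowest, with 10.52 beside 10.22 and 10.56.

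**Figure D2:**
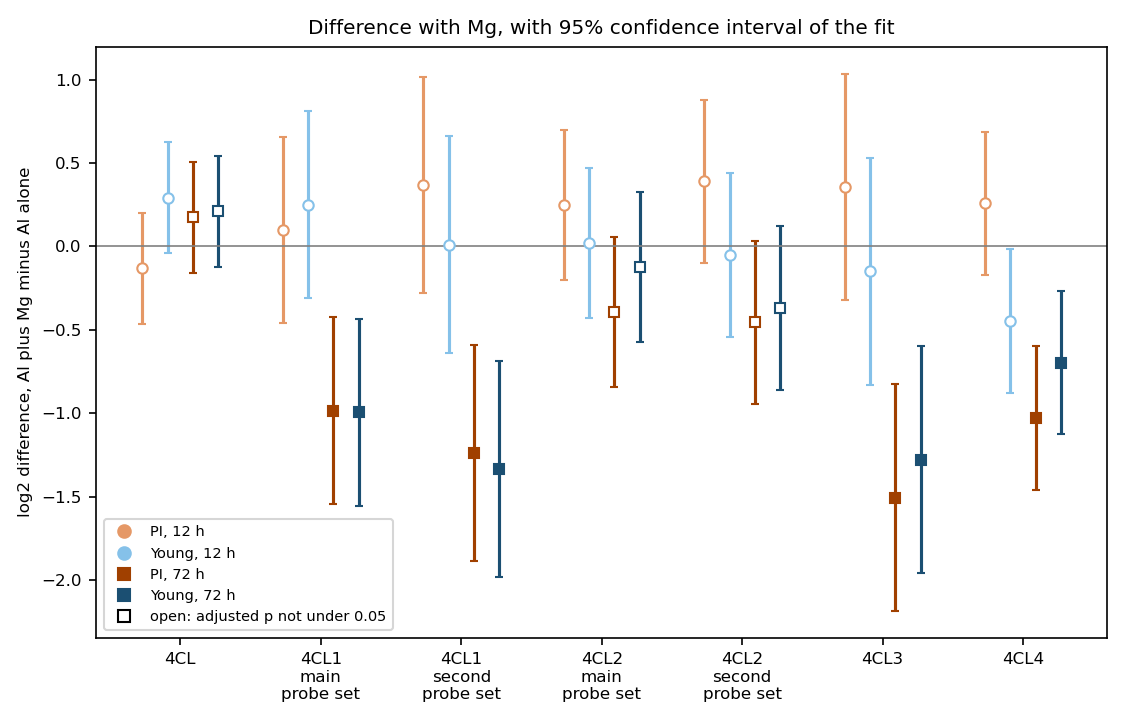
The log2 difference of Al plus Mg minus Al alone (vertical axis) for each 4CL probe set (horizontal axis) in PI and Young at 12 and 72 h, with the 95% confidence interval of the limma fit. Filled symbols passed at an adjusted p under 0.05, which were 4CL1, 4CL3 and 4CL4 at 72 h in both lines.

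The difference between the Mg responses at 72 and 12 h was tested as an interaction. In PI, 3 of 7 probe sets passed, all toward lower values at 72 h, beside 8.03% of all tested probe sets in that direction. The second probe set of 4CL1 had −1.61 ± 0.43 (limma adjusted p = 0.0157), 4CL3 −1.86 ± 0.46 (limma adjusted p = 0.00845) and 4CL4 −1.29 ± 0.29 (limma adjusted p = 0.00470). The main probe set of 4CL1 had −1.08 ± 0.38 (limma adjusted p = 0.0558), and passed with the signal filter (limma adjusted p = 0.0466). The second lost its call in the fit of the 12 PI arrays alone (limma adjusted p = 0.0788). Without replicate 2 of PI with Mg at 12 h, the array of low 4CL1 and 4CL2 noted above, 6 of 7 passed, 4CL being the exception.

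In Young, 2 of 7 passed for the same interaction, beside 15.0% of all tested probe sets toward lower values. Both were of 4CL1, with −1.25 ± 0.38 (limma adjusted p = 0.0153) on the main and −1.35 ± 0.43 (limma adjusted p = 0.0227) on the second probe set. The second lost its call (limma adjusted p 0.0513 to 0.0584) on leaving out replicate 1 of Young with Al alone at 12 h, replicate 1 or 2 of Al alone at 72 h, replicate 3 of Al plus Mg at 12 h or replicate 3 of Al plus Mg at 72 h. 4CL3 had −1.13 ± 0.46 (limma adjusted p = 0.0639) and 4CL4 −0.25 ± 0.29 (limma adjusted p = 0.552). With Al alone in Young, 4CL3 passed without replicate 2 at 12 h (limma adjusted p = 0.0491) or replicate 1 at 72 h (limma adjusted p = 0.0442). It also passed without replicate 1 of Young with Mg at 12 h (limma adjusted p = 0.0326).

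The Mg response was not shown to differ between the lines for any 4CL probe set. At 72 h the interaction of Mg with line had 0 of 7 passing by limma, beside 1.45% of all tested probe sets. At an unadjusted p under 0.05 there were 0 of 7, and 5177 of 37593 over all tested probe sets. For 4CL1 it was 0.01 (95% confidence interval −0.78 to 0.80), for 4CL3 −0.23 (−1.19 to 0.73) and for 4CL4 −0.33 (−0.94 to 0.28), where a value below 0 means a more negative difference with Mg in PI. At 12 h it had 0 of 7 passing by limma, beside 0.0133% of all tested probe sets. At an unadjusted p under 0.05 there was 1 of 7 (4CL4, 0.71 ± 0.29, limma adjusted p = 0.231), and 6236 of 37593 over all tested probe sets.

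Between 12 and 72 h with Al alone, 4CL2 rose in both lines and 4CL3 rose in Young. With Al plus Mg, 4CL1 fell in both lines and 4CL3 and 4CL4 fell in PI. Whether a time difference differs with Mg is what the interaction of Mg with time above tested. For 4CL2 on its main probe set that interaction was −0.64 ± 0.30 (limma adjusted p = 0.167) in PI and −0.15 ± 0.30 (limma adjusted p = 0.763) in Young. On the second it was −0.84 ± 0.33 (limma adjusted p = 0.0884) and −0.32 ± 0.33 (limma adjusted p = 0.501). The time comparisons share arrays with those of Mg above, so their values are given side by side and not as separate evidence.

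4CL2 read 10.84, 10.63 and 10.20 at 12 h and, as given above, 11.30 to 11.52 at 72 h in PI with Al alone. In Young with Al alone it read 10.97, 10.89 and 10.66 at 12 h and 11.66, 11.51 and 11.41 at 72 h. All 72 h arrays were above all 12 h arrays in both lines, as for 19.7% of all tested probe sets in PI and 21.5% in Young. The rise was 0.85 ± 0.21 (SE, 1.80-fold, limma adjusted p = 0.00442) in PI and 0.69 ± 0.21 (1.61-fold, limma adjusted p = 0.0123) in Young, and on the second probe set 0.98 ± 0.23 (limma adjusted p = 0.00289) and 0.82 ± 0.23 (limma adjusted p = 0.00662). With Mg the main probe set differed by 0.21 (limma adjusted p = 0.469) in PI and 0.54 (limma adjusted p = 0.0640) in Young, where no array overlapped, a gap seen upward in 22.8% of all tested probe sets. In Young that difference passed with equal array medians (limma adjusted p = 0.0432) and with the arrays of the comparison alone (limma adjusted p = 0.0464).

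With Al alone in PI, 2 of 7 probe sets rose and 2 of 7 fell by limma, beside 15.7% and 23.5% of all tested probe sets. The 2 that fell were 4CL (−0.51 ± 0.16, limma adjusted p = 0.0160) and the second probe set of 4CL1 (−0.84 ± 0.31, limma adjusted p = 0.0374). 4CL read 9.14, 9.51 and 9.27 at 12 h, and replicate 3 at 72 h (9.22) lay among them. Both falls lost their calls in the fit of these 6 arrays alone, without replicate 2 at 12 h and without replicate 1 at 72 h, and the second probe set of 4CL1 also without replicate 1 at 12 h or replicate 2 at 72 h. With Al alone in Young, 3 of 7 rose and 0 fell, beside 20.7% and 29.0%. The third was 4CL3, from 9.67, 9.94 and 9.16 at 12 h to the 10.30 to 10.84 given above (1.06 ± 0.32, 2.09-fold, limma adjusted p = 0.0106). Without replicate 3 at 12 h its difference was 0.85 (limma adjusted p = 0.0553). In PI with Al alone 4CL3 read 10.84, 9.65 and 9.80 at 12 h and the 10.40 to 11.11 given above at 72 h, with overlap, and its difference of 0.74 ± 0.32 did not pass (limma adjusted p = 0.0785). It passed without replicate 1 at 12 h (1.11, limma adjusted p = 0.00998) and without replicate 3 at 72 h (0.96, limma adjusted p = 0.0399), and whether the time difference of 4CL3 differs between the lines was not tested.

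With Al plus Mg in PI, 4 of 7 fell and 0 rose, beside 22.4% and 21.7% of all tested probe sets. 4CL1 fell by 1.48 ± 0.27 (2.79-fold lower, limma adjusted p = 2.42e-04) on the main and fell by 2.45 ± 0.31 (5.48-fold lower, limma adjusted p = 8.27e-06) on the second probe set. 4CL3 fell by 1.12 ± 0.32 (limma adjusted p = 0.00908) and 4CL4 fell by 1.09 ± 0.20 (limma adjusted p = 3.49e-04). The 4CL3 call was lost without replicate 3 at 12 h (−0.89, limma adjusted p = 0.0518). In Young with Mg, 2 of 7 fell and 0 rose, beside 15.6% and 15.5%. Both belonged to 4CL1, from 10.56, 10.82 and 10.82 at 12 h to 9.22 to 9.58 at 72 h on the main probe set (−1.36 ± 0.27, 2.57-fold lower, limma adjusted p = 8.80e-04) and −1.73 ± 0.31 on the second (limma adjusted p = 4.10e-04). 4CL3 and 4CL4 in Young with Mg had −0.07 and −0.14 (limma adjusted p = 0.961 and 0.710). Whether these time differences with Mg differ between the lines was not tested.

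The difference of 4CL2 minus 4CL1 within an array removes anything that scales a whole array, and it changes when either gene moves. It does not remove effects that differ between probe sets. The height of that difference depends on the probes, so it is read only between groups. On the main probe sets the 4 groups of 12 h had means of 0.13 to 0.50. At 72 h the PI mean was 1.59 ± 0.12 (SD, n = 3) in Al alone and 2.19 ± 0.37 in Al plus Mg, and the Young means were 1.16 ± 0.16 and 2.03 ± 0.03. The 72 h arrays with Mg were above those with Al alone in each line without overlap, and both were above all 12 h arrays. With 3 arrays a group an exact permutation test cannot pass, so none was run. For 4CL4 minus 4CL3 the lowest means were those of Al alone at 72 h, −0.46 ± 0.30 in PI and −0.38 ± 0.30 in Young, and the other group means ran from −0.02 to 0.57. Other gene pairs were compared in the same way and are not all shown. At 72 h the arrays with and without Mg overlapped in both lines for 4CL4 minus 4CL1, and in neither line for 4CL minus 4CL1.

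**Figure D3:**
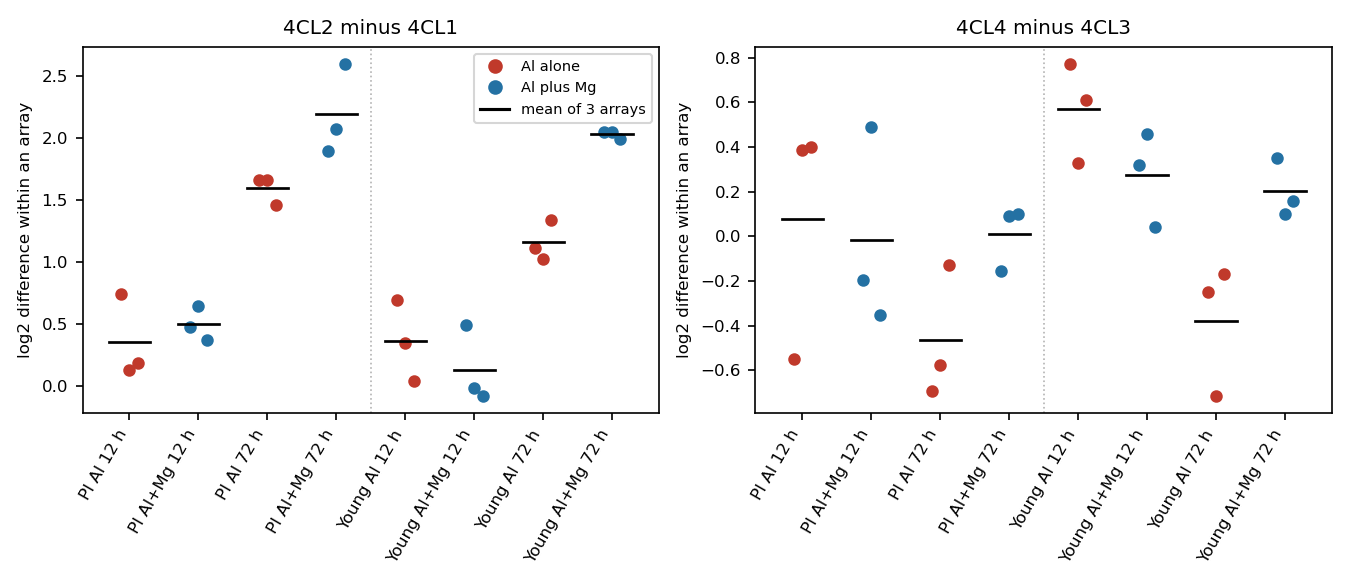
The log2 difference within each array (vertical axis) of 4CL2 minus 4CL1 and of 4CL4 minus 4CL3, on the main probe sets, in the 8 groups (horizontal axis), with 1 point per array and a bar at the mean of 3. For 4CL2 minus 4CL1 all 72 h arrays lie above all 12 h arrays, and within each line the 72 h arrays with Mg lie above those with Al alone.

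Few differences between the lines passed. With Al plus Mg at 12 h, 4CL3 and 4CL4 were higher in PI than in Young, so 2 of 7 probe sets passed as higher, beside 6.02% of all tested probe sets, and 0 as lower, beside 7.54%. 4CL3 read 10.41, 10.03 and 10.91 in PI and 8.95, 9.50 and 9.87 in Young, with no overlap, as for 17.8% of all tested probe sets upward (1.01 ± 0.32, SE, 2.01-fold, limma adjusted p = 0.0461). 4CL4 read 10.22, 10.52 and 10.56 in PI and 9.27, 9.96 and 9.91 in Young, with no overlap (0.72 ± 0.20, 1.65-fold, limma adjusted p = 0.0271). 4CL went the other way, with 9.29, 9.04 and 9.19 in PI and 9.57, 9.70 and 9.68 in Young and no overlap, a gap seen downward in 14.6% of all tested probe sets. Its difference of −0.47 ± 0.16 did not pass (limma adjusted p = 0.0556) but did with equal array medians (limma adjusted p = 0.0493). Neither of the 2 calls held in all alternatives: with the 6 arrays of the comparison alone the adjusted p of limma was 0.160 for 4CL3 and 0.145 for 4CL4. Leaving out replicate 3 of PI or replicate 1 of Young also ended both calls, replicate 1 of PI or replicate 2 of Young that of 4CL3, and replicate 2 of PI that of 4CL4.

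With Al alone at 72 h, 1 of 7 probe sets passed, the second of 4CL1, as lower in PI (6.46, 6.44 and 7.16) than in Young (7.88, 7.77 and 7.30), beside 6.37% of all tested probe sets in that direction. Its difference was −0.96 ± 0.31 (SE, limma adjusted p = 0.0483), and the main probe set of 4CL1, also without overlap (12.8% of all tested probe sets downward), had −0.56 ± 0.27 (limma adjusted p = 0.201). The call was lost in the fit of these 6 arrays alone, with an offset of 32, with all probe sets but controls, and without replicate 1 or 2 of either line. Without replicate 3 of PI it held, and 4CL also passed as lower in PI (−0.57, limma adjusted p = 0.0156). With Al alone at 12 h limma passed 0 of 7, beside 4.21% of all tested probe sets, and 0 of 7 had an unadjusted p under 0.05, beside 6060 of 37593. With Al plus Mg at 72 h limma passed 0 of 7, beside 9.83%, and 2 of 7 had an unadjusted p under 0.05, beside 8842 of 37593. In that last comparison all 7 differences were below 0, from −0.87 to −0.05, and the 7 probe sets read 5 genes. The median difference over all tested probe sets was 0.01.

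The order of the 8 groups differed between the genes. 4CL1 on its main probe set was highest in Young with Mg at 12 h (10.73 ± 0.15, SD, n = 3) and lowest in PI with Mg at 72 h (8.83 ± 0.33). Its neighbours in that order overlapped, with 2 exceptions: Young with Mg at 72 h was apart from PI with Al alone at 72 h above it and from PI with Mg at 72 h below it. 4CL2 was highest in Young with Al alone at 72 h (11.53 ± 0.13) and lowest in PI with Al alone at 12 h (10.56 ± 0.33), and the 1 gap between neighbours lay between Young and PI with Mg at 72 h.

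4CL3 was highest in PI with Al alone at 72 h (10.84 ± 0.38) and lowest in PI with Mg at 72 h (9.33 ± 0.13), and 4CL4 highest in PI with Mg at 12 h (10.43 ± 0.19) and lowest in PI with Mg at 72 h (9.34 ± 0.20). All neighbours of 4CL3 and of 4CL4 in these orders overlapped. 4CL was highest in Young with Mg at 12 h (9.65 ± 0.07), apart from the next group, and lowest in PI with Al alone at 72 h (8.80 ± 0.40). Its group means spanned 0.85 on the log2 scale, against 1.91 for 4CL1, 0.97 for 4CL2, 1.51 for 4CL3 and 1.09 for 4CL4 on the main probe sets.

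Within the family the probe sets of 1 gene varied together. Over the 24 arrays, which share the 8 groups, Pearson's r was 0.963 for the pair of 4CL1 and 0.961 for the pair of 4CL2, as a description. 4CL3 and 4CL4 had r of 0.803, and 4CL1 and 4CL2 had −0.08 over the arrays but 0.668 for the deviations of the arrays from their group means. PI with Mg at 12 h had the largest group SD of both 4CL1 (0.71) and 4CL2 (0.59), with replicate 2 lowest for both. That group therefore weighs most in the r of the deviations, which was not computed without it. 4CL had −0.48 with 4CL3 and 0.549 with 4CL1. The shared probe set had r of 0.963 with 4CL4 and 0.861 with 4CL3.

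Among 1513 or 1514 other single-gene probe sets of genes with a symbol and a mean above the signal filter, those most alike over the 24 arrays differed from gene to gene, with group structure shared by all. For 4CL1 they included GH (r = 0.910), LBD23 (0.908), CCR, the cinnamoyl-CoA reductase that opens the lignin branch (0.900), PAP (0.900) and MYB56 (0.897). For 4CL2 they were GASA22 (0.836), CYP98A2, the cytochrome P450 that hydroxylates coumaroyl esters on the way to lignin (0.808), WRKY54 (0.801) and 2 probe sets of MAPKK2 (0.797 and 0.791). For 4CL4 the nearest were 4 probe sets of the chalcone synthase CHS1 (0.818 to 0.855), then the alternative oxidase AOX3 (0.816). For 4CL3 they were B13-1-9 (0.910), BMY2 (0.894), SCA1 (0.894), NDR1b (0.892) and ALDH3H1 (0.883). For 4CL they were LAX11 (0.894), COR1 on 2 probe sets (0.835 and 0.798), GSTU17 (0.825) and AS2 (0.824).

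The other enzymes of the pathway were read at 72 h by the main probe set of each of 34 genes in 4 lists of symbols. At the entry, the list held PAL2.1, a phenylalanine ammonia lyase, and C4H, the cinnamate hydroxylase that makes 4-coumarate. C4H fell by 0.38 ± 0.11 with Mg in PI (limma adjusted p = 0.00986) and had −0.20 (limma adjusted p = 0.164) in Young, and PAL2.1 had −0.16 (limma adjusted p = 0.504) and −0.28 (limma adjusted p = 0.210). By limma 1 of 2 fell in PI and 0 of 2 in Young, beside 13.0% and 16.3% of all tested probe sets.

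Of 3 genes on the list for the lignin branch 1 fell with Mg in each line, beside the same 13.0% and 16.3%. It was the dirigent-family gene DIR22 (−0.29, limma adjusted p = 0.0372 in PI, and −0.31, limma adjusted p = 0.0262 in Young). CCR had −0.43 (limma adjusted p = 0.101) and −0.32 (limma adjusted p = 0.207), and CYP98A2 had 0.17 (limma adjusted p = 0.396) and 0.32 (limma adjusted p = 0.0877). Of 18 chalcone and flavonoid genes 6 fell and 1 rose in PI, and 3 fell and 1 rose in Young, beside 13.0% falling and 20.7% rising over all tested probe sets in PI and 16.3% and 23.1% in Young, with 8 of the 18 at or under the bound on 21 or more of the 24 arrays. CHS1, a chalcone synthase, which uses the product of 4CL, fell by 3.42 ± 0.70 in PI (limma adjusted p = 0.00108) and had −2.99 ± 0.70 in Young (limma adjusted p = 0.00240). CHS8, the other chalcone synthase of the list, fell by 0.42 ± 0.10 in PI (limma adjusted p = 0.00435) and fell by 0.32 ± 0.10 in Young (limma adjusted p = 0.0187). The chalcone isomerase CHI1A fell in PI (−0.66, limma adjusted p = 0.00108) and had −0.11 (limma adjusted p = 0.575) in Young, while CHI3A1 rose in both (0.54, limma adjusted p = 0.0341, and 0.57, limma adjusted p = 0.0213).

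Of 11 isoflavonoid and glyceollin genes 6 fell and 0 rose in each line, beside 13.0% falling and 20.7% rising over all tested probe sets in PI and 16.3% and 23.1% in Young. The list median was −1.07 in PI and −1.27 in Young, beside 0.06 and 0.03 over all tested probe sets. IFS2, an isoflavone synthase, fell by 1.48 ± 0.23 in PI (limma adjusted p = 8.60e-05) and fell by 1.27 ± 0.23 in Young (limma adjusted p = 2.46e-04), and IFS1 had 0.02 (limma adjusted p = 0.918) and 0.07 (limma adjusted p = 0.705). The largest fall of the list was that of CYP93A1, with −6.41 in PI (limma adjusted p = 9.10e-09) and −6.28 in Young (limma adjusted p = 8.29e-09). G4DT had −5.40 in PI (limma adjusted p = 1.38e-05) and −4.00 in Young (limma adjusted p = 1.81e-04). IFR had −4.07 in PI (limma adjusted p = 1.04e-06) and −1.92 in Young (limma adjusted p = 0.00118). CYP93A2 fell by 2.18 in PI (limma adjusted p = 0.00204) and had −2.50 in Young (limma adjusted p = 4.75e-04). HIDH, the dehydratase that completes the isoflavone, fell by 0.25 in PI (limma adjusted p = 0.0216) and fell by 0.23 in Young (limma adjusted p = 0.0311).

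**Figure D4:**
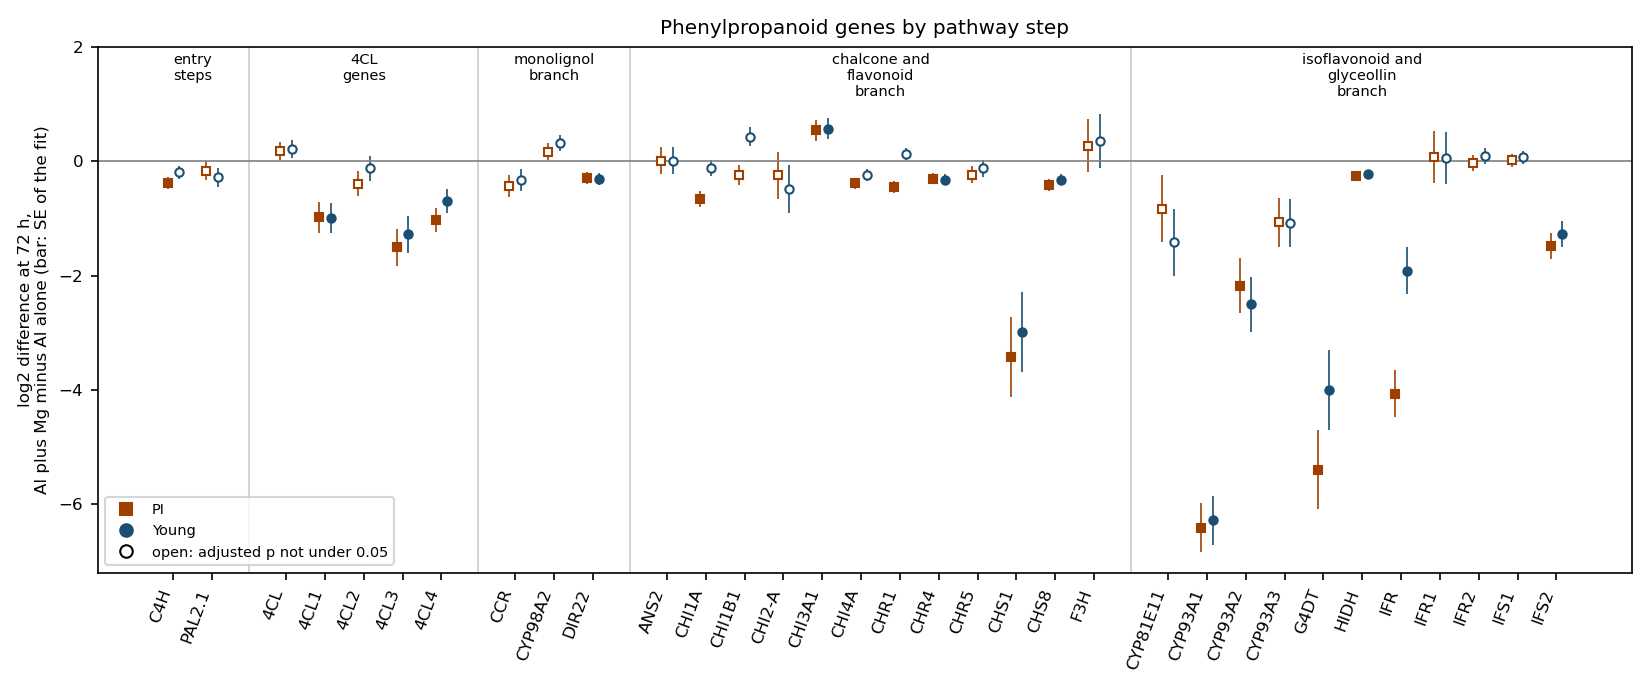
The log2 difference of Al plus Mg minus Al alone at 72 h (vertical axis, bar: SE of the limma fit) for genes of the phenylpropanoid pathway ordered by step (horizontal axis), in PI and Young. Filled symbols passed at an adjusted p under 0.05, and the 6 flavonoid genes at or under the bound on all 24 arrays are not drawn. 4CL1, 4CL3, 4CL4, CHS1 and CHS8 are filled and below 0 in both lines, and 4CL and 4CL2 are open in both.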

How the data were processed

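The labels' protocols state RNA extraction from root tips, oligo-dT priming and biotin-labelled cRNA on Affymetrix arrays. The deposited values are intensity values on a linear scale, 1 per probe set and array, already summarised by the authors; how they were summarised and normalised is not given in the sources used here. Values were floored at 1, taken to log2 and used as deposited. A model of 8 group means was fitted with limma 3.58.1 (R 4.3.3, lmFit and eBayes) over the 37593 probe sets with soybean IDs, with Benjamini-Hochberg adjustment within each of 16 comparisons and a threshold of 0.05, and was tested on simulated data. The background came from 23394 probe sets for other organisms on the array: the bound of an array is their 99th percentile there (2.74 to 3.14, log2), and the signal filter, an alternative, the 95th percentile of their means (2.40). Control probe sets (183) were left out. Names came from the platform annotation, updated through the gene ID: 8677 probe sets have 1 symbol, 370 several, and 28546 tested ones none, and 8652 of the 8677 matched the reference table. Gene symbols, marker lists and pathway lists were chosen with earlier results of these data known. Genes most alike were the 5 of highest r among single-gene probe sets of named genes above the filter, for each main probe set. LBD23, CHIA1, PERK1, H1 and H-1 matched a list by letters only and were left out of the lists. Alternatives were the filter, all probe sets, quantile normalization, equal array medians, the arrays of a comparison alone, a replicate block, an offset of 32, the other probe set of a gene, and leaving out each array. Same-numbered arrays were checked for pairing: 10 of 36 pairs had deviations correlated over 0.1 (range −0.43 to 0.41). All pairs were over 0.1 in 1 of 12 comparisons, the time difference in Young with Mg (0.15 to 0.25), which does not show that the numbers pair samples. The replicate block changed no call there, but it was 1 factor shared by all groups and does not test pairing within that comparison. The number of arrays limits the precision.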

Additional observations from a re-analysis of the deposited data

Results flagged for a closer look

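The Mg response of 5 probe set and line pairs differed between 72 and 12 h by the test of the difference itself, the interaction in limma. In PI these were the second probe set of 4CL1 (−1.61), 4CL3 (−1.86) and 4CL4 (−1.29). In Young these were the main (−1.25) and second (−1.35) probe sets of 4CL1. Each value is the log2 difference with Mg at 72 h minus that at 12 h. Over all tested probe sets 8.03% passed that interaction downward in PI and 15.0% in Young. Groups of 3 arrays were too small for the test of single arrays far from the others.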

How the results depend on the processing

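No called difference of a 4CL probe set reversed in 1656 repeats under other settings, and 1598 kept their side of the threshold, 38 lost a call and 20 gained one. In 57 repeats the sign of a difference that passed in neither setting changed. For Mg at 72 h, 1 call was lost and 2 were gained in 186 repeats, each named in the report. The cause of these changes was not tested. Of the counts of 4CL probe sets passing, that for line with Al alone at 72 h went from 1 to 0 with all probe sets but controls, with the replicate block (limma adjusted p = 0.0681 for the second probe set of 4CL1), with an offset of 32 and with the arrays alone, and ran from 0 to 2 on leaving out single arrays. That for line with Mg at 12 h went from 2 to 1 with all probe sets, to 1 with the replicate block (limma adjusted p = 0.0648 for 4CL3) and to 0 with the arrays alone, and from 0 to 2 on leaving out arrays. That for time in PI with Al alone went from 4 to 2 with the arrays alone, and from 2 to 5 on leaving out arrays. The interaction of Mg with time ran from 3 to 6 in PI (3 as reported) and from 1 to 3 in Young (2 as reported) on leaving out arrays. The replicate block changed no other count by over 1.5 times, and ended 1 more call, the second probe set of 4CL1 for time in PI with Al alone (limma adjusted p = 0.0510).

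Counts over all tested probe sets also moved by over 1.5 times in 9 comparisons. For Mg they ran from 0 to 24 in PI at 12 h (11 as reported), from 8007 to 19829 in PI at 72 h (12685), and from 0 to 3117 in Young at 12 h (11), the last without replicate 3 of Young with Al alone, where 0 of 7 4CL probe sets still passed. For Mg by line they ran from 3 to 2614 at 12 h (5), also without that array, and from 221 to 673 at 72 h (544). For line they ran from 365 to 2006 with Al alone at 12 h (1584), 1457 to 5013 at 72 h (4737), 1119 to 5188 with Mg at 12 h (5099) and 1327 to 8476 at 72 h (3696).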
